A study of Homo sapiens with 9 samples.

Results

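Ribosome biogenesis genes encode the factors that build ribosomes in the nucleolus: they transcribe ribosomal RNA (rRNA), modify and cut it, and fold it with ribosomal proteins into the small and the large subunit. A list of 41 such genes was followed in PANC-1 cells exposed to TVB-3166, an inhibitor of fatty acid synthase, the enzyme that makes palmitate. A gene was measured by every probe set that the array annotation assigns to it and to no other gene, which gave 74 of the 54675 probe sets on the array and 36 of the 41 genes (of 19775 genes named in this way). NOP56, DKC1, BOP1 and PPAN are named only on probe sets that also name another gene, mostly small nucleolar RNA (snoRNA) or microRNA genes, and no probe set was assigned to GNL3, so these 5 genes have no value here. All 36 genes passed the filter on low signal (a mean above 38.95), through 69 of the 74 probe sets.

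PANC-1 is a human line of pancreatic ductal carcinoma. The 9 arrays (Affymetrix HG-U133 Plus 2.0) hold 3 replicates each of vehicle (DMSO), 0.1 µM and 1.0 µM TVB-3166, all after 72 hours in medium with charcoal-filtered serum. Apart from 0.1 µM replicate 1, whose description names DMSO only, the treated cells received the inhibitor in DMSO per their descriptions. The source names of the DMSO samples give 0.05% DMSO, and every description that gives a percentage gives 0.5%. The grouping follows the sample titles, since other label fields contradict them for 0.1 µM replicate 1 and for the 1.0 µM samples. Nothing says that the replicates were separate cultures, so the p-values measure the spread between these samples, which may be technical.

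All 6 epithelial markers checked were well above the filter, with mean signals of 15535 for KRT8, 20488 for KRT18 and 15969 for KRT19. KRT8 (−0.86) and KRT19 (−0.90) fell and KRT7 rose (1.06) at 1.0 µM, while at 0.1 µM CDH1 fell (−0.59) and KRT7 rose (1.11). The part of these changes in the members' values was not tested. Of the markers of other cell types, PTPRC, CD14, CDH5, VWF, CPA1, INS, GCG, ALB and APOA2 averaged 5.5 to 32.7, below the filter. CD3E (70.1), PECAM1 (191.7) and KLK3 (450.8) were above it, and 0 of these 3 were called at either dose. The arrays differed in the signal of the hybridisation spikes, control RNAs added before hybridisation: 4 arrays (DMSO replicate 2, 0.1 µM replicates 1 and 3, 1.0 µM replicate 2) had mean log2 spike signals of 11.93 to 12.12 and the other 5 of 11.21 to 11.41. They are called the higher and the lower spike set here. At 1.0 µM against DMSO a value on higher-spike arrays is therefore a difference between 2 single arrays. At 0.1 µM against DMSO the lower set holds 1 treated array and the higher set 1 DMSO array. Changes are differences of log2(signal + 16) ± the limma standard error (SE), and a gene was called at a Benjamini-Hochberg adjusted p under 0.05 over all 13948 tested genes. The sum in the logarithm makes each change slightly smaller than the ratio of signals. In whole-cell RNA, fewer transcripts per cell and a changed mix of cell states cannot be told apart.

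As background, RNA polymerase I copies the rRNA genes with the help of the DNA-binding factor UBTF and the initiation factor RRN3. Guide snoRNAs in box C/D and box H/ACA particles direct the methylation and pseudouridylation of the transcript, the small-subunit processome cuts it, and further factors mature the large subunit. The transcription factor MYC is known to drive many of these genes through the E-box CACGTG in their promoters, and tumour cells commonly depend on the programme. That motif was therefore counted in the RefSeq promoter windows (assembly GRCh38.p14), which run from 250 bases before to 50 bases after each transcription start. The motif is its own reverse complement, so a single search covers both strands.

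Of 36 genes on the list with a window in the table, 16 (44.4%) held CACGTG. Among all genes tested on these arrays that have a window the share was 12.4% (1390 of 11219). It was 0 of 6 in the rRNA transcription genes, 2 of 3 in the box C/D genes, 2 of 4 in the box H/ACA genes, 7 of 13 in the small-subunit genes and 4 of 7 in the large-subunit genes. For 11 of the 17 motifs the first base lay 4 to 36 bases after the annotated start, and the other 6 lay before it. The 30 bases around the motif are shown, 5′ to 3′ on the gene's strand with the E-box in capitals, for 4 genes whose array values are described below (NAT10, PNO1, LTV1 and RRP9) and for members of the other assembly steps that hold the motif.
NAT10: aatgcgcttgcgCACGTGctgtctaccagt
PNO1: ggtgcagctgcgCACGTGtttcagccggca
LTV1: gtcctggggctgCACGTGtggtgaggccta
RRP9: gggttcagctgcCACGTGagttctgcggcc
FBL: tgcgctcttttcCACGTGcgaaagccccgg
GAR1: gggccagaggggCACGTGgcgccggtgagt
DDX21: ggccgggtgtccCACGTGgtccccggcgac
PES1: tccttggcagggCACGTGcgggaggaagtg
These 30-base stretches were aligned on the motif, and the bases beside it differ between genes. The stretches lie at chr11:34105602-34105631 for NAT10, chr2:68157885-68157914 for PNO1 and chr6:143843354-143843383 for LTV1, all on the plus strand. That of RRP9 lies at chr3:51941892-51941921 and that of FBL at chr19:39846356-39846385, both on the minus strand. GAR1, of the box H/ACA particle, has its stretch at chr4:109815781-109815810 and DDX21 at chr10:68956604-68956633, on the plus strand, and PES1 at chr22:30591880-30591909 on the minus strand. A match is a description of the sequence, and nothing measured here says whether MYC was bound.

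**Figure D1:**
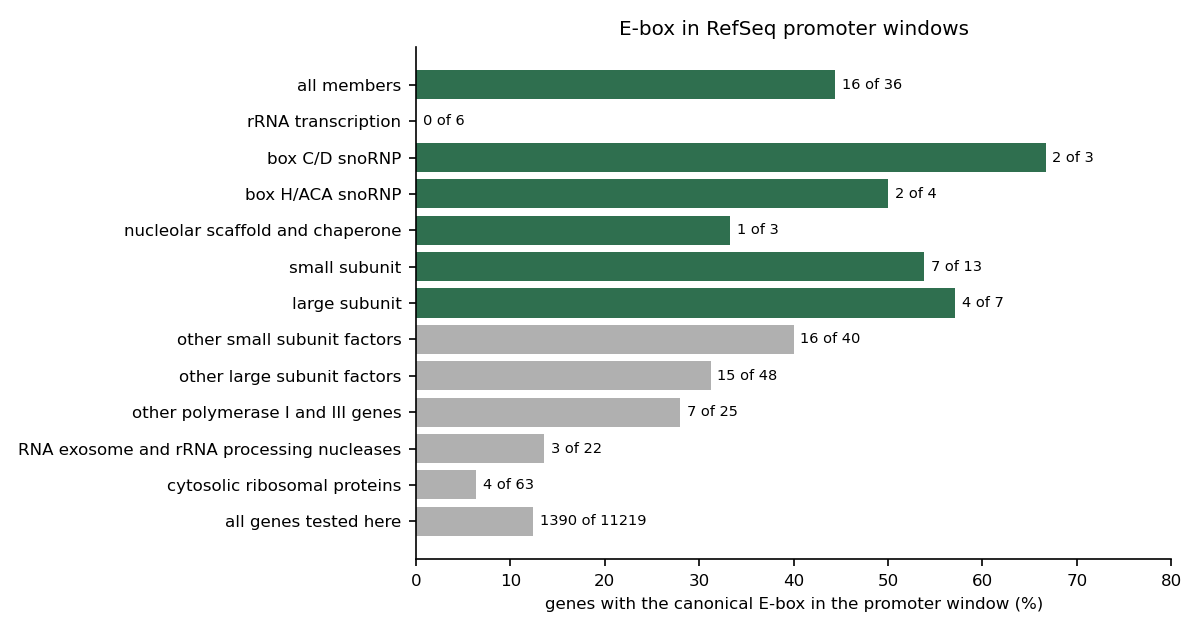
Share of genes (%, horizontal axis) whose RefSeq promoter window holds the canonical E-box, for the members and their role groups (green) and for other lists and all genes tested (grey), with counts beside the bars. The members stand at 44.4% and all genes tested at 12.4%, while the 6 rRNA transcription genes hold none.

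At 1.0 µM against DMSO most of the programme moved little. Of the 36 genes 3 rose (HEATR1, NOB1 and PNO1), 3 fell (UBTF, NAT10 and NOP58) and 30 were not called, which is 16.7% called beside 23.2% of all tested genes (12.3% higher and 11% lower). The DMSO and 1.0 µM arrays did not overlap in 12 members, 8 higher and 4 lower, beside 37.2% of all genes (19.2% higher and 18% lower). The median change was −0.02 for the members and 0.01 for all genes. The middle 50% of the members spanned −0.11 to 0.19, an interquartile range of 0.31, beside 0.48 for all genes. Only UBTF differed by at least 1.5-fold (2.78% of the members, beside 15.9% of all genes) and 0 of 36 by at least 2-fold. For 30 of the 36 genes the 95% interval of the change lay within 1.5-fold either way (83.3%, beside 44% of all genes), with a median SE of 0.12, and of 0.15 for all genes. The 6 genes whose interval reached beyond it were UBTF, NAT10, NOLC1, RRP9, RRP12 and LTV1.

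At 0.1 µM against DMSO, 3 members fell (UBTF, NOP58 and WDR75) and 0 rose, or 8.33% called beside 12% of all tested genes (6.89% higher and 5.11% lower). The arrays of these groups did not overlap in 9 members, 1 higher and 8 lower, beside 30% of all genes (15.5% higher and 14.6% lower). At an unadjusted p under 0.05 there were 7 members (19.4%, beside 25.4% of all genes). The median change was again −0.02, with an interquartile range of 0.28 beside 0.39 for all genes, and 30 of 36 intervals stayed within 1.5-fold (83.3%, beside 51.3% of all genes). The DMSO arrays are the same in both comparisons, so the values at the 2 doses are given side by side and are not independent. Between the doses themselves limma called 0 of 36 members, beside 0.817% of all genes (0.387% higher and 0.43% lower), and 5 members had an unadjusted p under 0.05 (13.9%, beside 12.4%). The arrays of the doses did not overlap in 7 members, 6 higher and 1 lower, beside 18.5% of all genes (9.73% higher and 8.73% lower). The signal was higher at 1.0 than at 0.1 µM in 26 of 36 members, with a median difference of 0.08 (all genes: 7094 of 13948, median 0.01). Without 1.0 µM replicate 2 the members' median was 0.01, beside 0.02 for all genes, and with median centring it was 0.03, beside −0.045 for all genes.

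**Figure D2:**
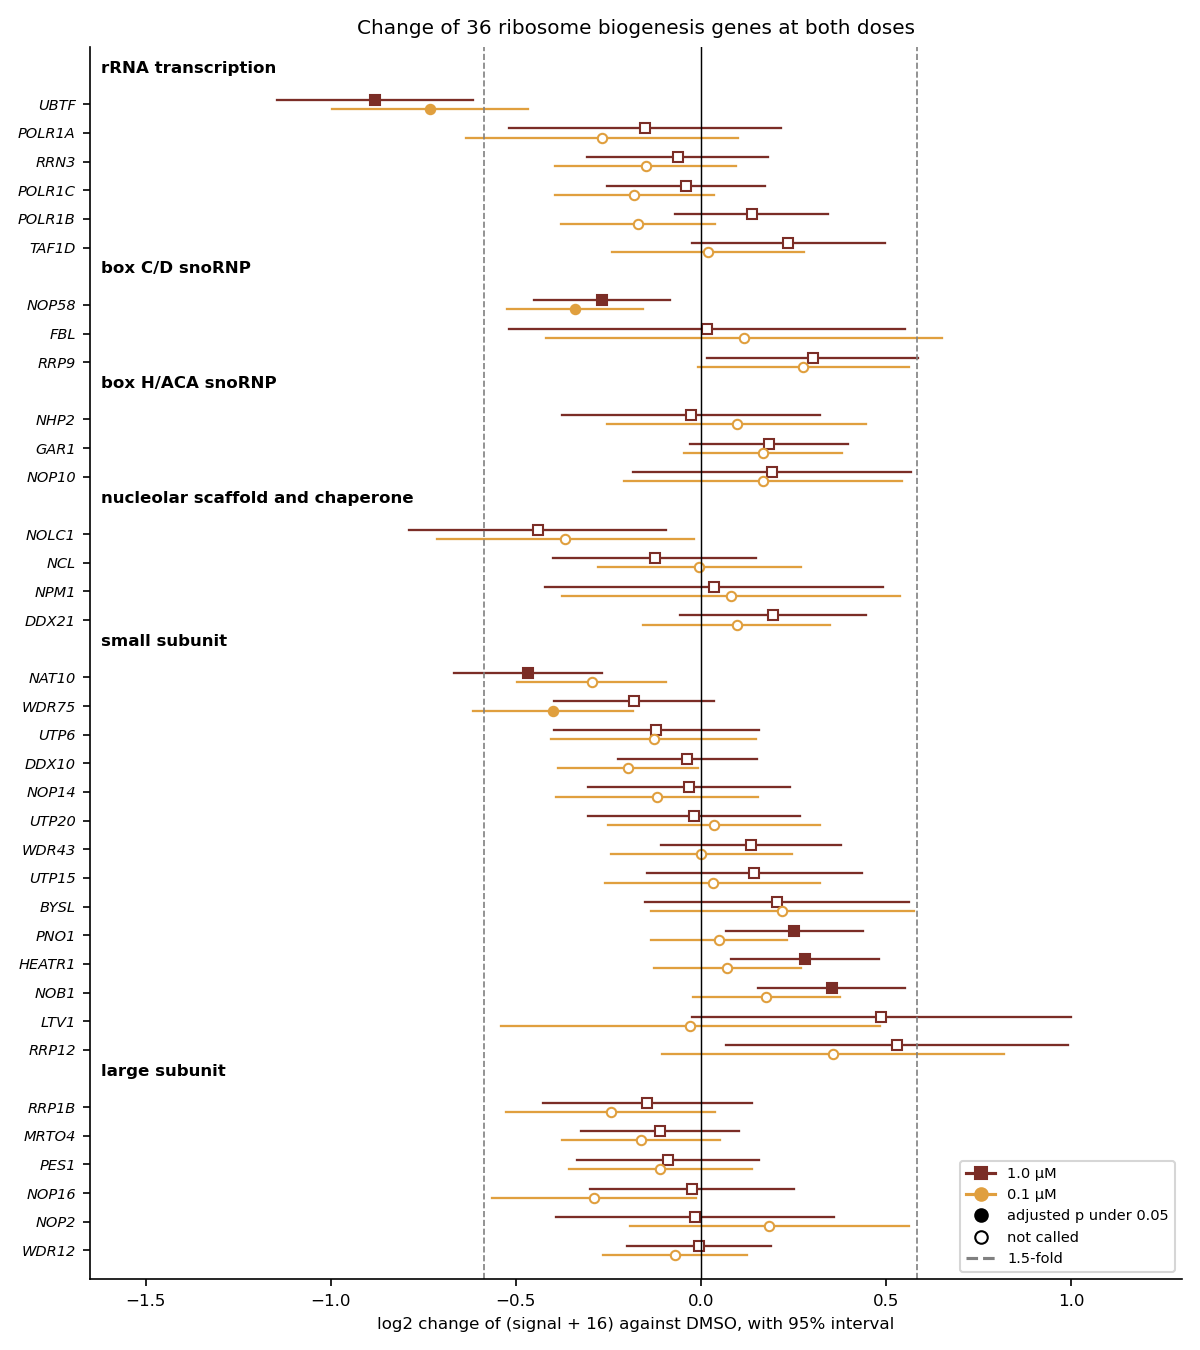
Log2 change of (signal + 16) against DMSO (horizontal axis) with its 95% interval for the 36 measured members by role, at 1.0 µM (brown squares) and 0.1 µM (orange circles), 3 arrays per group. Filled symbols have an adjusted p under 0.05, dashed lines mark 1.5-fold, and only UBTF lies beyond them.

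Among the 6 rRNA transcription genes UBTF fell and no other was called. UBTF (Entrez gene 7343) encodes the factor that opens rRNA gene chromatin and recruits the polymerase I initiation complex. Its signal was 880.5, 883.2 and 1107.5 on the DMSO arrays, 530.1, 628.7 and 545.8 at 0.1 µM, and 536.5, 476.7 and 516.8 at 1.0 µM. Every treated array lay below every DMSO array, and both doses overlapped. The change was −0.73 ± 0.12 at 0.1 µM (adjusted p = 0.00193) and −0.88 ± 0.12 at 1.0 µM (adjusted p = 0.000253), and the doses differed by −0.15 ± 0.12 (adjusted p = 0.689). Lower-spike arrays gave −0.89 at 1.0 µM and higher-spike arrays −0.87. The fall at 0.1 µM was −0.64 (adjusted p = 0.135) within the lower set, which holds a single 0.1 µM array.

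The 4 tested probe sets of UBTF all lay below 0 at 1.0 µM, from −0.88 to −0.13, yet only the brightest was called. A second had signals of 538.9, 577.2 and 790.5 in DMSO and 547.0, 682.5 and 494.6 at 1.0 µM, which overlap. With the mean of the gene's probe sets UBTF was called at 1.0 µM but not at 0.1 µM (−0.32, adjusted p = 0.169). The size of its fall therefore depends on the probe set.

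POLR1A, the largest catalytic subunit of polymerase I, also differed by probe set. Its brightest probe set was not called at 1.0 µM (−0.15 ± 0.17, adjusted p = 0.589). A dimmer probe set read 242.7, 239.4 and 297.3 in DMSO, 199.6, 214.5 and 208.1 at 0.1 µM, and 150.5, 154.5 and 148.8 at 1.0 µM, so the 3 groups did not overlap. It fell by 0.72 ± 0.14 (adjusted p = 0.00448 in the fit over 32768 probe sets). The third fell by 0.43 ± 0.13 (adjusted p = 0.0452), with DMSO signals of 288.9, 276.7 and 337.7 and 1.0 µM signals of 209.8, 217.9 and 229.6. Thus 2 of its 3 probe sets fell, and neither is the one that stands for the gene in the counts above.

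The remaining rRNA transcription genes were not called at either dose. POLR1B, the other large catalytic subunit, was at 0.14 ± 0.10 at 1.0 µM and −0.17 ± 0.10 at 0.1 µM by its brightest probe set. There every 1.0 µM array lay above the DMSO arrays and every 0.1 µM array below them. The doses did not pass the limma test against each other (0.31, adjusted p = 0.195). Other tested probe sets of POLR1B overlapped DMSO at both doses, at −0.05 to 0.34 at 1.0 µM and −0.10 to 0.15 at 0.1 µM. TAF1D, a subunit of the promoter selectivity factor, read 662.6, 543.7 and 578.5 in DMSO and 705.7, 633.0 and 771.1 at 1.0 µM, which overlap (0.24 ± 0.12, adjusted p = 0.188). At 0.1 µM TAF1D read 560.7, 659.6 and 587.1 (0.02 ± 0.12, adjusted p = 0.943). POLR1C, a subunit shared with polymerase III, was at −0.04 and RRN3 at −0.06 at 1.0 µM.

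Of the genes for box C/D particles, which guide rRNA methylation, NOP58 (Entrez gene 51602), a core protein of the particle, fell at both doses. Its signal was 6345.5, 6081.8 and 6696.9 in DMSO, 5111.7, 5095.6 and 4885.5 at 0.1 µM, and 5159.5, 5279.7 and 5443.5 at 1.0 µM. All 6 treated arrays lay below the DMSO arrays, and the 1.0 µM arrays lay above those at 0.1 µM. The change was −0.34 ± 0.08 at 0.1 µM (adjusted p = 0.0211) and −0.27 ± 0.08 at 1.0 µM (adjusted p = 0.039). The call at 1.0 µM was lost without any array except 0.1 µM replicate 2 (adjusted p = 0.0538 to 0.119). The call at 0.1 µM was lost without DMSO replicate 1 (0.0652) or 3 (0.0608) or 0.1 µM replicate 1 (0.0633) or 3 (0.102). At 1.0 µM the lower-spike arrays gave −0.30 and the higher-spike arrays −0.20.

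RRP9, which binds the U3 snoRNA that guides early cuts of the transcript, was not called. It read 867.0, 847.4 and 807.2 in DMSO, 1155.3, 825.0 and 1116.1 at 0.1 µM, and 927.4, 1123.3 and 1077.6 at 1.0 µM. The 1.0 µM arrays lay above the DMSO arrays, but the change of 0.30 ± 0.13 missed the threshold (adjusted p = 0.122). At 0.1 µM the lower array was the only one of the lower spike set, and without it RRP9 was called (adjusted p = 0.0344). Fibrillarin, the methyltransferase of the particle encoded by FBL, was at 0.02 ± 0.24 at 1.0 µM.

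The 3 measured genes of the box H/ACA particle, which guides pseudouridylation, were not called at either dose. GAR1 was at 0.18 ± 0.10, NOP10 at 0.19 ± 0.17 and NHP2 at −0.03 ± 0.16 at 1.0 µM. The telomerase RNA uses the same proteins, and the enzyme of the particle, dyskerin, is the product of DKC1, not measured here.

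The signals of several bright nucleolar genes separated by spike set. FBL read 16730 to 22092 on the 5 lower-spike arrays and 26587 to 30274 on the 4 higher-spike arrays. NPM1, which encodes the nucleolar chaperone nucleophosmin, read 15123 to 18965 and 22818 to 25376. The 2 sets did not overlap in either gene, nor in NCL (nucleolin), NOP10 or NHP2. They did not overlap in the dimmer BYSL and NOP2 either (mean signals of 1303.3 and 953.5). The share of all tested genes that separate in this way was not counted. The part of the spike signal in the members' values was not tested further than by a fit with the spike set as a block. In that fit DDX21 and NOLC1 joined the 6 called genes at 1.0 µM, and at 0.1 µM NOLC1 and NOP16 joined the 3. The share of all genes called rose in that fit too, to 31.3% at 1.0 µM and 16% at 0.1 µM.

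**Figure D3:**
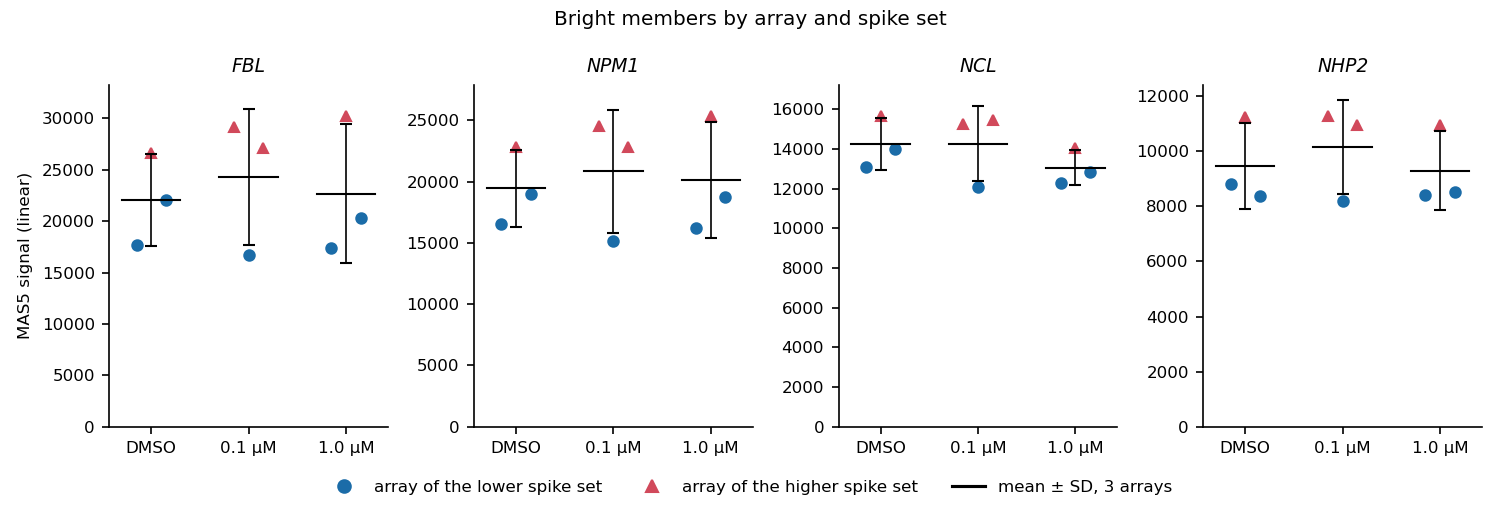
MAS5 signal (linear scale, vertical axis) of FBL, NPM1, NCL and NHP2 on each array by dose, with the mean ± SD of 3 arrays. Arrays of the higher spike set (red triangles) lie above those of the lower set (blue circles) within each dose.

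NOLC1, a phosphoprotein that binds snoRNA particles, had signals of 8121.6, 9158.7 and 7068.5 in DMSO, 6987.2, 5416.1 and 6479.0 at 0.1 µM, and 5100.6, 7622.9 and 5386.9 at 1.0 µM. The 0.1 µM arrays lay below the DMSO arrays and 1 of the 1.0 µM arrays, replicate 2 of the higher spike set, overlapped them. The changes of −0.37 ± 0.16 and −0.44 ± 0.16 were not called (adjusted p = 0.173 and 0.0654). With the spike set as a block they were −0.49 (adjusted p = 0.00239) and −0.44 (adjusted p = 0.00168), and without 1.0 µM replicate 2 NOLC1 was called at 1.0 µM (adjusted p = 0.00606). Its 3 probe sets lay between −0.44 and −0.15 at 1.0 µM. NCL was at −0.12 ± 0.13, NPM1 at 0.04 ± 0.21 and the RNA helicase gene DDX21 at 0.19 ± 0.12 at 1.0 µM. A dimmer probe set of NPM1 lay below every DMSO array at both doses, at −0.31 ± 0.10 at 0.1 µM and −0.29 ± 0.10 at 1.0 µM. It was not called in the limma fit over probe sets (adjusted p = 0.0823 and 0.0619). Another NPM1 probe set lay at −0.01 ± 0.20 at 1.0 µM.

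The 14 small-subunit genes held 4 of the 6 calls at 1.0 µM, with 3 rises and 1 fall. That is 28.6% of them, near the 23.2% of all genes, and their median change was 0.14. NAT10 (Entrez gene 55226), which acetylates cytidines of the small-subunit rRNA, was the one that fell. Its signal was 1221.8, 1227.0 and 1326.6 in DMSO, 1003.2, 1039.9 and 1021.8 at 0.1 µM, and 975.3, 837.8 and 909.4 at 1.0 µM. The 3 groups did not overlap and lay in the order of dose. The change was −0.30 ± 0.09 at 0.1 µM (adjusted p = 0.058) and −0.47 ± 0.09 at 1.0 µM (adjusted p = 0.00304), and the step between the doses was not called (−0.17, adjusted p = 0.496). The call at 1.0 µM held without each of the 9 arrays, with −0.43 on lower-spike and −0.54 on higher-spike arrays. At 0.1 µM NAT10 was called without 1.0 µM replicate 2 (adjusted p = 0.0377).

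NOB1 and PNO1 act as a pair late in maturation: NOB1 is the nuclease that makes the final cut of the small-subunit rRNA, and PNO1 is its partner on the precursor. NOB1 (Entrez gene 28987) read 952.1, 1034.1 and 1044.0 in DMSO, 1094.6, 1196.6 and 1139.8 at 0.1 µM, and 1214.7, 1371.9 and 1298.9 at 1.0 µM. Again the 3 groups lay in the order of dose without overlap. It rose by 0.35 ± 0.09 at 1.0 µM (adjusted p = 0.0145) and was not called at 0.1 µM (0.18 ± 0.09, adjusted p = 0.255). The call was lost on leaving out DMSO replicate 1 (adjusted p = 0.0569) or the third 1.0 µM array (0.0514), and NOB1 was not called on lower-spike arrays alone (0.33, adjusted p = 0.0904), on higher-spike arrays alone (0.40, adjusted p = 0.0556) or with median centring (adjusted p = 0.0861).

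PNO1 (Entrez gene 56902) read 4393.6, 4372.1 and 4005.0 in DMSO, 4450.5, 4244.6 and 4506.2 at 0.1 µM, and 4896.0, 5247.1 and 5074.4 at 1.0 µM. On this probe set, its brightest, only the 1.0 µM arrays stood apart. PNO1 rose by 0.25 ± 0.08 at 1.0 µM (adjusted p = 0.049) against 0.05 ± 0.08 at 0.1 µM (adjusted p = 0.783). That call lies at the threshold and was lost on leaving out any single array of the 9 (adjusted p = 0.0527 to 0.131). With the mean of the gene's probe sets it was lost in limma too (adjusted p = 0.139). The dimmer probe sets of PNO1 overlapped DMSO at both doses. They lay at 0.09 and 0.41 at 1.0 µM and at 0.37 and −0.19 at 0.1 µM.

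HEATR1 (Entrez gene 55127), a large scaffold of the small-subunit processome that is also needed for polymerase I transcription, read 2587.3, 2395.2 and 2693.0 in DMSO, 2618.4, 2760.6 and 2682.9 at 0.1 µM, and 2908.1, 3432.6 and 3011.4 at 1.0 µM. The 1.0 µM arrays lay above all others, the highest being replicate 2 of the higher spike set. It rose by 0.28 ± 0.09 at 1.0 µM (adjusted p = 0.044), with 0.16 on lower-spike and 0.52 on higher-spike arrays, and was at 0.07 ± 0.09 at 0.1 µM. The call was lost without any array except DMSO replicate 3 (adjusted p = 0.0518 to 0.144), and its 5 probe sets lay between −0.06 and 0.38. With quantile normalization HEATR1 was not called (adjusted p = 0.283).

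WDR75, a processome subunit that binds the nascent transcript, fell at 0.1 µM alone by this threshold. It read 1427.2, 1433.8 and 1210.8 in DMSO, 954.8, 1112.2 and 1005.0 at 0.1 µM, and 1197.0, 1207.2 and 1174.2 at 1.0 µM. The 1.0 µM arrays lay between the other groups and just under the lowest DMSO array. The change was −0.40 ± 0.10 at 0.1 µM (adjusted p = 0.0211) and −0.18 ± 0.10 at 1.0 µM (adjusted p = 0.228), and the doses did not pass the test against each other (0.22, adjusted p = 0.397). Without DMSO replicate 1 (0.0801) or 2 (0.0763) or 0.1 µM replicate 1 (0.0942) or 3 (0.0878) the call was lost. Lower-spike arrays gave −0.24 and higher-spike arrays −0.54.

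RRP12 and LTV1 had the 2 highest values among the members at 1.0 µM, and neither was called. RRP12, an export factor of pre-ribosomes, read 766.9, 604.0 and 825.9 in DMSO, 951.2, 800.0 and 1073.5 at 0.1 µM, and 842.1, 1570.5 and 887.6 at 1.0 µM. At 0.1 µM the change was 0.36 ± 0.21 (adjusted p = 0.33). The change of 0.53 ± 0.21 at 1.0 µM (adjusted p = 0.0936) was 0.12 in the lower spike set and 1.36 in the higher set. In the higher set DMSO and 1.0 µM have 1 array each and the spread comes from the 0.1 µM arrays. A dimmer probe set of RRP12 read 318.8, 360.5 and 361.9 in DMSO and 453.7, 486.3 and 547.1 at 1.0 µM, and rose by 0.49 ± 0.13 (adjusted p = 0.0238 among probe sets).

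LTV1, an assembly chaperone of the small subunit's head, read 1448.9, 1757.4 and 1176.6 in DMSO, 1248.9, 1501.3 and 1504.3 at 0.1 µM, and 2874.6, 1300.4 and 2228.2 at 1.0 µM. The change of 0.49 ± 0.23 (adjusted p = 0.165) was 0.95 on lower-spike arrays and −0.43 on higher-spike arrays. Without 1.0 µM replicate 2 LTV1 was called at 1.0 µM against DMSO (adjusted p = 0.00453) and against 0.1 µM (adjusted p = 0.0381). Its second, dimmer probe set lay at −0.49 ± 0.20 (adjusted p = 0.125), so the direction for LTV1 depends on the probe set.

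**Figure D4:**
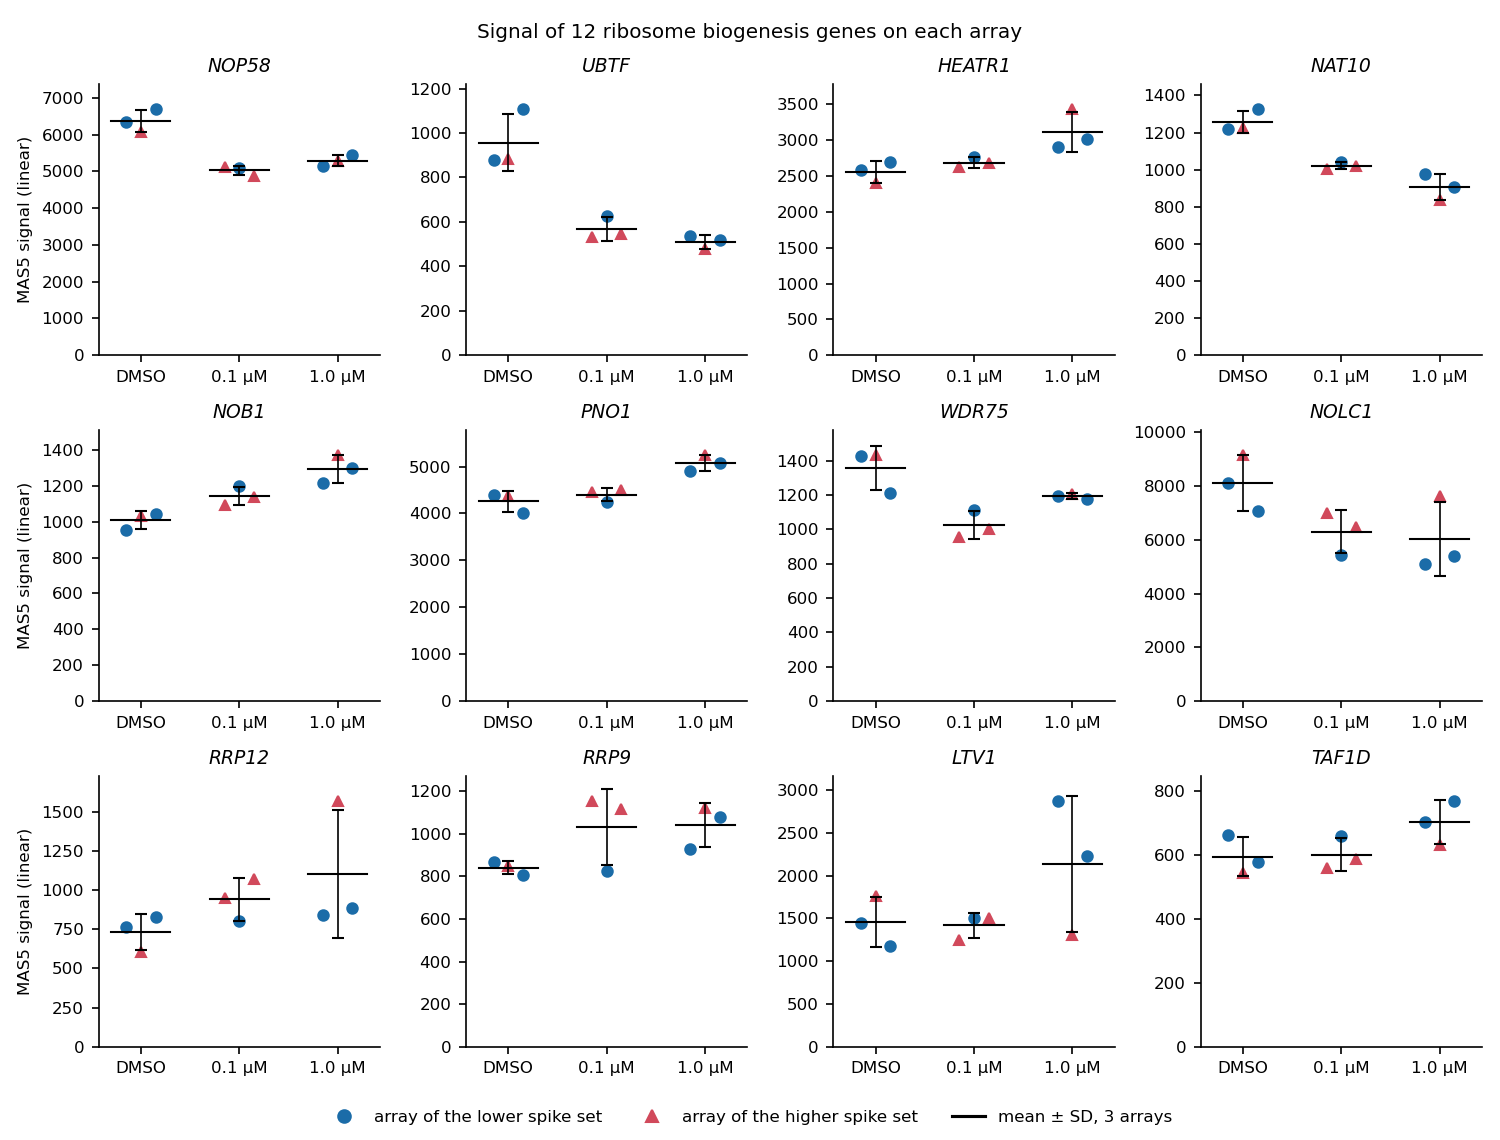
MAS5 signal (linear scale from 0, vertical axis) of 12 members on each array, by dose, with the mean ± SD of 3 arrays; blue circles and red triangles mark the lower and higher spike sets. UBTF, NAT10 and NOP58 lie below DMSO at both doses, and single 1.0 µM arrays stand apart in RRP12 and LTV1.

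The other 7 small-subunit genes were not called at either dose. At 1.0 µM they ran from −0.12 for UTP6 to 0.21 for BYSL, with the processome genes UTP15, UTP20, WDR43, DDX10 and NOP14 between them. BYSL encodes bystin, a late assembly factor. By their brightest probe sets the 6 large-subunit genes all lay below 0 at 1.0 µM, as did 6868 of all 13948 tested genes. They ran from −0.14 (RRP1B) to −0.005 (WDR12) at 1.0 µM and from −0.29 (NOP16) to 0.19 (NOP2) at 0.1 µM. In limma 0 were called at either dose, with 0 and 1 at an unadjusted p under 0.05 at 1.0 and 0.1 µM. At 1.0 µM other probe sets lay at 0.18 for RRP1B and −0.24 for MRTO4. Those of WDR12 lay at −0.40 and −0.24 and those of NOP16 at −0.02 and −0.08. These other probe sets were not called. WDR12 and PES1 encode 2 subunits of the complex that processes the large-subunit rRNA, and PES1 was at −0.09 ± 0.11. NOP2, a methyltransferase of that rRNA, was at −0.02 ± 0.17, MRTO4, which holds the place of the stalk, at −0.11 ± 0.10 and NOP16 at −0.02 ± 0.13.

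The calls were also read by probe set, and they fell partly on other members. At 1.0 µM 6 of the 69 tested probe sets were called (8.7%, beside 17.6% of all 32768, 8.94% higher and 8.68% lower): 2 were higher (NOB1 and 1 of RRP12) and 4 lower (UBTF, NAT10 and 2 of POLR1A). At 0.1 µM 3 were lower (4.35%, beside 8.25%, of which 4.59% higher and 3.66% lower), and between the doses 0 were called (beside 0.281%, 0.122% higher and 0.159% lower). Of the 17 members with more than 1 tested probe set, 10 had all of them on the same side of 0 at 1.0 µM and 7 did not. In the probe set fit NOP58, HEATR1 and PNO1 were not called at 1.0 µM (adjusted p = 0.0579, 0.0623 and 0.071).

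**Figure D5:**
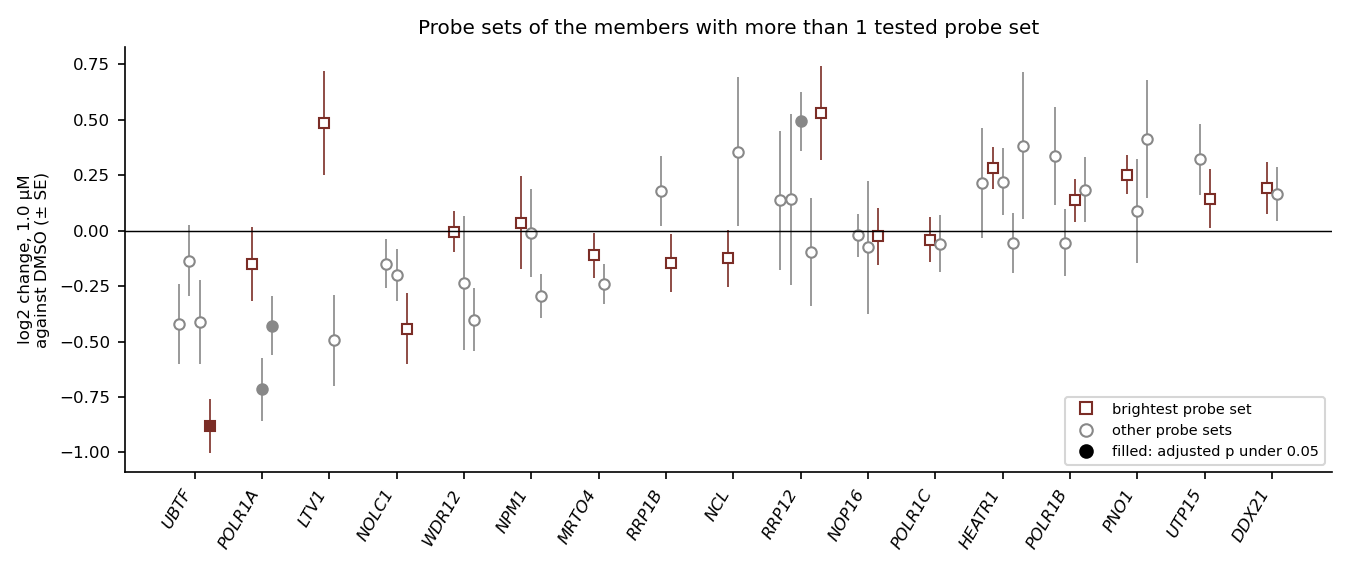
Log2 change at 1.0 µM against DMSO (vertical axis, ± SE) of every tested probe set of the 17 members that have more than 1; brown squares mark the brightest probe set of a gene, and filled symbols an adjusted p under 0.05. All 4 of UBTF and all 3 of POLR1A lie below 0, and those of LTV1 lie on opposite sides.

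The rest of the pathway was read from lists of other genes, beside the shares of all genes called given above (23.2% at 1.0 µM and 12% at 0.1 µM). Of 46 tested small-subunit factors outside the members, 4 rose and 4 fell at 1.0 µM (17.4%, median 0.07). DIMT1, an rRNA methyltransferase, rose by 0.59, BUD23, another methyltransferase, by 0.43 and NOL7 by 0.34. TSR2, an escort of a ribosomal protein, fell by 0.58, UTP23 by 0.40 and NOL11 by 0.36. At 0.1 µM UTP3 (−0.41) and IMP3 (−0.37) fell and 0 rose.

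Of 51 genes listed as other large-subunit factors, 6 rose and 6 fell at 1.0 µM (23.5%, median 0.04). EIF6, which keeps the large subunit from joining too early, rose by 0.65 ± 0.13, PAK1IP1 by 0.60 ± 0.13 and RSL24D1 by 0.52 ± 0.12. MDN1, the giant ATPase that strips assembly factors from the particle, fell by 0.70 ± 0.11 and LAS1L, a nuclease subunit, by 0.52 ± 0.12. NOP9, counted on this list although it acts in small-subunit maturation, fell by 0.63 ± 0.15. At 0.1 µM EIF6 (0.59) and RSL24D1 (0.47) rose, and MDN1 (−0.58), NOP9 (−0.57), NOC2L (−0.53) and 1 more gene fell.

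Of 31 further polymerase I and III genes, 5 rose and 3 fell at 1.0 µM (25.8%, median 0.02). POLR3C, a polymerase III subunit, rose by 0.80 ± 0.10, TAF1A, of the same selectivity factor as TAF1D, by 0.73 ± 0.12 and POLR3D by 0.61. GTF3C1, the largest subunit of a polymerase III initiation factor, fell by 0.61 ± 0.12, GTF3C4 by 0.51 and POLR3K by 0.36. At 0.1 µM 3 rose (POLR3C 0.57, POLR3E 0.36 and POLR1E 0.34) and 2 fell (POLR1F −0.47 and GTF3C4 −0.40).

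Of 25 exosome and rRNA nuclease genes, 2 rose and 3 fell at 1.0 µM (20%, median −0.12). EXOSC8, an exosome ring subunit, rose by 0.79 ± 0.16 and RPP40, of the RNase P and MRP complexes, by 0.60 ± 0.09. POP7 of the same complexes fell by 0.41, EXOSC10 by 0.35 and DIS3 by 0.30. At 0.1 µM EXOSC8 (0.69) and RPP40 (0.42) rose, and EXOSC5 (−0.35) and MTREX (−0.33) fell.

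Over these 4 lists 33 of 153 genes were called at 1.0 µM (21.6%, 17 higher and 16 lower) and 17 at 0.1 µM (11.1%). The share for the 36 members was 16.7% and 8.33%, and the difference between the lists was not tested. Of 53 tested genes for the ribosome's own proteins, limma called 0 at 1.0 µM, 0.1 µM and between the doses, beside 23.2%, 12% and 0.817% of all genes, with 1, 0 and 0 at an unadjusted p under 0.05. Their SEs were larger (0.143 to 0.254, median 0.213) than the members' median of 0.12, so changes of the size called among the members could be missed. Their changes at 1.0 µM ran from −0.14 to 0.53, with a median of 0.02. Of the 63 with a promoter window, 4 held the E-box (6.35%). The share was 40% in the other small-subunit factors, 31.2% in the other large-subunit factors, 28% in the further polymerase genes and 13.6% in the exosome and nuclease genes.

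MYC rose at 1.0 µM by 0.49 ± 0.11 (adjusted p = 0.00812), from 2264.4, 2450.0 and 2435.1 in DMSO to 3118.9, 3759.8 and 3228.2. At 0.1 µM it read 2679.7, 2378.1 and 3150.3 and was not called (0.19, adjusted p = 0.338). The call held without each of the 9 arrays, with 0.43 on lower-spike and 0.61 on higher-spike arrays. In the same comparison 3 of the 36 members rose and 3 fell (8.33% each way, beside 12.3% of all genes higher and 11% lower). A link between MYC and the members was not tested.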

How the data were processed

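The authors deposited 1 hybridisation intensity per probe set and array on a linear scale. These are MAS5 signals per the submitters' processing notes (version not given in the sources used here), and every array averages 500.1 once the top and bottom 2% of signals are removed. They were used as log2(signal + 16) with no further normalization. Symbols came from the platform annotation and were updated by Entrez identifier (41043 of 41091 probe sets with 1 gene). A probe set was kept if its mean level exceeded the 40th percentile, and the brightest stood for each gene (13948 genes). The 3 groups were fitted in 1 model with limma 3.58.1 in R 4.3.3 (lmFit, eBayes with trend, 6 residual and 5.93 prior degrees of freedom), two-sided, checked on simulated data. A second fit used all 32768 probe sets.

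The members and the lists were chosen with earlier results of these data known, so no p is adjusted over the members alone. Values in every array are given for the members called in any comparison and the next by p at 1.0 µM, 12 in all, and for other lists up to 3 called genes each way with the largest change. POLR1A, POLR1B and the dimmer probe sets were singled out after their values were seen. Same-numbered replicates were not treated as pairs. Alternatives were other added constants, filters, normalizations, probe set rules and variance models, only the arrays compared, a replicate block, the spike set, a fold minimum and each array left out. Promoter windows are RefSeq's on GRCh38.p14.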

Additional observations from a re-analysis of the deposited data

How the results depend on the processing

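Without any filter on low signal 3 members were called at 1.0 µM against DMSO (14.5% of all genes), beside 6 in the fit reported (23.2%). The count was also 3 with eBayes without trend (20.6% of all genes), only the 6 arrays compared (20%) and the replicate block (18.3%). With median centring there were 2 (18.7%), and with a fold of at least 1.5 as well there was 1 (12.8%). At 0.1 µM against DMSO median centring and the fold minimum each left 1 (9.03% and 6.62% of all genes). The spike set as a block gave 5 (16%), beside 3 in the fit reported (12%). The lower spike set holds 1 array at 0.1 µM, and the higher set 1 of DMSO and 1 at 1.0 µM. Member counts within a single set are therefore not set beside the others. Leaving out each array in turn called 2 to 5 members at 1.0 µM, 1 to 4 at 0.1 µM and 0 to 1 between the doses. The shares of all genes called were 16.8% to 23.9%, 6.04% to 14.4% and 0.0789% to 1.33%. The lowest count at 1.0 µM, 2, came without DMSO replicate 1 or 1.0 µM replicate 3. At 0.1 µM 1 member was called without DMSO replicate 1 or 0.1 µM replicate 1 or 3. UBTF and NAT10 were called at 1.0 µM in all of these except NAT10 with the fold minimum. No named member that was called changed its sign. The cause of these shifts was not tested.

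The replicate block called 3 members at 1.0 µM (18.3% of all genes), 2 at 0.1 µM (8.15%) and 0 between the doses (0.165%). Deviations of same-numbered arrays correlated at −0.338 to 0.217 over genes. Most of these pairs join a higher-spike and a lower-spike array, so the correlations cannot decide whether the numbers pair the samples. Over all genes the count at 1.0 µM fell from 3240 to 1788 with the fold minimum. At 0.1 µM the count of 1674 fell to 924 with it, to 324 in the lower spike set, and to 1092, 1054 and 843 without DMSO replicate 1 and 0.1 µM replicates 1 and 3. Between the doses the 114 genes ranged from 1 (lower spike set) to 304 (higher set). With 3 arrays a group, precision is limited: the median SE of the members was 0.12.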

Other observations

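Members whose promoter window holds CACGTG were set beside those without it, a comparison chosen after the data were seen and described with no test. At 1.0 µM against DMSO the 15 measured members with the motif had a median change of 0.14, from −0.47 (NAT10) to 0.49 (LTV1), with 1 rise (PNO1) and 1 fall. The 17 with a window but no motif had a median of −0.03, with 2 rises and 1 fall. At 0.1 µM the medians were 0.05 and −0.13, with 0 and 2 called. Between the doses (1.0 against 0.1 µM) the order was the other way, with medians of 0.025 and 0.117 and 0 called in both. Of all tested genes 23.2%, 12% and 0.817% were called in these 3 comparisons. All tested genes were not split by the motif, so the medians have no background. The 4 measured members without a window had medians of −0.21 at 1.0 µM and −0.29 at 0.1 µM against DMSO, with 1 fall at each dose. The DMSO arrays are shared by these comparisons.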
